A study of Homo sapiens with 12 samples.

Results

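The DNA replication machinery is followed here as 47 listed genes of origin licensing, the replicative helicase, the DNA polymerases, the sliding clamp and the supply of nucleotides. The genes were chosen by name, from a list, and not by a measured value. All 47 were found by Ensembl identifier among the 60660 identifiers of the files, and all 47 were among the 12830 coding genes tested, so that no listed gene was lost to the filter on low values. The genes lie on 19 chromosomes. By role, 6 encode the origin recognition complex, 3 the licensing factors and their inhibitor, 6 the helicase core MCM2 to MCM7, 3 the other MCM proteins, 6 CDC45, the GINS subunits and TOPBP1, 4 polymerase alpha with primase, 5 polymerases delta and epsilon, 6 the clamp and its loader, 3 the single-strand binding protein RPA, 2 the maturation of Okazaki fragments and 3 nucleotide synthesis.

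Replication begins at origins that the origin recognition complex marks and where CDC6 and CDT1 load the MCM2 to MCM7 ring, a step called licensing that geminin, encoded by GMNN, blocks outside G1. CDC45 and GINS join the ring to form the active helicase, primase and polymerase alpha lay down primers, and polymerases delta and epsilon extend them on the clamp PCNA, which the RFC complex loads. RPA covers the single strands, FEN1 and LIG1 join the Okazaki fragments, and ribonucleotide reductase and thymidylate synthase provide nucleotides. Many of these genes are known E2F targets whose RNA peaks in late G1 and S phase in dividing cells.

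The samples were 12 RNA-seq libraries that the labels give as HEK293T, a line of human embryonic kidney cells, while the study's text writes HEK293 for its siRNA experiments. HEK293T is the derivative of HEK293 that carries the SV40 large T antigen, and HEK293 itself carries adenovirus E1A, both proteins known to bind and inactivate RB, the repressor of E2F factors. The 6 groups of 2 libraries were transfected with a control siRNA (siCTL, genotype WT in the labels) or with siRNA against CARM1, an arginine methyltransferase (siCARM1), or against 4 proteins that the study counts as members of the NuRD chromatin remodelling complex, the ATPase CHD4 (siCHD4), the deacetylase HDAC2 (siHDAC2), the zinc-finger protein GATAD2A (siGATAD2A) and the demethylase KDM1A (siKDM1A). The study's methods list 2 siRNAs against CARM1 and 1 against each of CHD4, HDAC2, GATAD2A and KDM1A, and the labels do not say which of the CARM1 siRNAs was used. The study asked whether CARM1 and NuRD act together on genes of the cell cycle. The labels do not say whether the libraries of a group came from separate cultures, how long after transfection the RNA was taken or at which of the sequencing providers a library was read, so the p-values below measure only the spread between these samples, and effects of an siRNA on other transcripts cannot be told apart from those of its target.

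In a library, 19308315 to 28648657 read pairs were counted on genes. CARM1, HDAC2, GATAD2A and KDM1A fell by 1.74 to 2.59 on the log2 scale in the libraries of their own siRNA. In CPM, counts scaled to the size of the library, CHD4 stood at 39.5 and 39.7 in siCTL and at 26.7 and 27.9 CPM in siCHD4, a log2 fold change of −0.54 (SE 0.07). In siCARM1, CHD4 was also called lower, at 32.6 and 30.7 CPM (−0.32, SE 0.07, adjusted p = 0.00039). In the annotation used here CHD4 shares 46.9% of its exonic bases with another gene of the same strand. Pairs that overlap 2 genes are not counted, so where the counting used these exons, this check rests on the remaining bases. GATAD2A rose in siCHD4 by 1.09 on the log2 scale (SE 0.05). Of 7 markers of HEK293 lines, 6 were expressed in every library and NEFM stood at no more than 0.196 FPKM. These markers moved with the groups. The 7 summed to 469.9 FPKM in both siCTL libraries, 638.5 and 639.1 FPKM in siCHD4, 595.7 and 602.5 FPKM in siCARM1, 621.4 and 629.6 FPKM in siKDM1A, 507.2 and 519.4 FPKM in siHDAC2, and 413.2 and 418.5 FPKM in siGATAD2A, and vimentin (VIM) had means of 72.7 FPKM in siCTL, 132.4 FPKM in siCARM1, 123.9 FPKM in siCHD4 and 46.7 FPKM in siGATAD2A. The 4 fibroblast markers summed to 14.7 and 14.8 FPKM in siCTL and to 10.4 and 10.8 FPKM in siCHD4. Of other cell types, PTPRC, CD3E, ESR1, TFF1 and DCN stayed under 0.4 FPKM in every library, whereas KRT19 at 32.3 to 43.6 FPKM and COL1A1 at 8.23 to 13.6 FPKM were present in all 6 groups. PTPRC, which marks blood cells, stood at no more than 0.00271 FPKM. The part of these markers in the results was not tested.

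Promoter windows are shown for 4 genes whose values are taken up below, LIG1 and RPA1 with the largest falls of any replication gene in siCHD4, CDT1 which fell in 3 knockdowns, and MCM3 which did not fall in siCHD4 while the other 5 subunits of its ring did. They were chosen after their values were seen. Each is the 250 bases before the transcription start in RefSeq on GRCh38.p14, read 5′ to 3′ on the strand of the gene, at chr19:48170345-48170594 on the minus strand for LIG1, chr17:1829755-1830004 on the plus strand for RPA1, chr16:88803539-88803788 on the plus strand for CDT1 and chr6:52284743-52284992 on the minus strand for MCM3. Capitals mark the matches to 3 forms of the E2F motif (TTTCGCGC, TTTGGCGC and TTTCCCGC) and to CCAAT, on either strand.
LIG1: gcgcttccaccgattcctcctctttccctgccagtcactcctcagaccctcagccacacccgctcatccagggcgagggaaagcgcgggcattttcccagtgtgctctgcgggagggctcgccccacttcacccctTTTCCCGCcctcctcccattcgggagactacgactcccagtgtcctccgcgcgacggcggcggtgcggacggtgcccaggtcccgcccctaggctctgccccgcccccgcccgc
RPA1: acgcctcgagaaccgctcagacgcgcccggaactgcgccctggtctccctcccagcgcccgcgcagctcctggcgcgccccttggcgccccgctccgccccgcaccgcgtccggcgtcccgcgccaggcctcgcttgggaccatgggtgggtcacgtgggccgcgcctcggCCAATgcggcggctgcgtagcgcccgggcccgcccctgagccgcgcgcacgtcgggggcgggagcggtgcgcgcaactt
CDT1: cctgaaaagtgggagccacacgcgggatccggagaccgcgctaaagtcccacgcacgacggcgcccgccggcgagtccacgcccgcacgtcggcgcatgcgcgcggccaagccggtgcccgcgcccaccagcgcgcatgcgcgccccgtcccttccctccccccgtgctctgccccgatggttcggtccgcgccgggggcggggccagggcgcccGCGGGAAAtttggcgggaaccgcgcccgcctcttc
MCM3: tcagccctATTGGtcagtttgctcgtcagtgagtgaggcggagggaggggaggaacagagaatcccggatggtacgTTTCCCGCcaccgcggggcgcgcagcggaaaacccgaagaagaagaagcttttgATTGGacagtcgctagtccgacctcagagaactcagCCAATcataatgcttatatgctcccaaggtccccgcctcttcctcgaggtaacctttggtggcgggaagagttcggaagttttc

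The LIG1 window held the E2F form TTTCCCGC 114 to 107 bases before the start, and the CDT1 window held the same form on the opposite strand 35 to 28 bases before the start. The RPA1 window held CCAAT 79 to 75 bases before the start and none of the 3 E2F forms. The MCM3 window held TTTCCCGC 174 to 167 bases before the start and 3 copies of CCAAT. Windows were given for 41 of the 47 genes (none for MCM4, MCM5, GINS4, POLD3, RPA2 and RPA3). Some genes have several windows, such as MCM7 with 3, and a gene was counted where any of its windows held a match. At least 1 of the 3 E2F forms was found in 14 of the 41 genes (34.1%). It was found in 507 of the 10395 coding genes tested that have a window (4.88%) and in 777 of 27305 genes in all (2.85%). CCAAT was found in 61% of these replication genes and 41.9% of the genes tested. GGGCGG was found in 75.6% and 76.3%, and the forms TTTGAA or TTTAAA of the CHR motif in 9.76% and 19.2%. An E2F form can share bases with GGGCGG or with CCAAT. Among the genes lower in siCHD4 than in siCTL, 7 of the 15 with a window (46.7%) held an E2F form, and among the other genes 7 of 26 (26.9%). A match describes the letters of a window and is not evidence of a bound factor.

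The level of each gene was taken as FPKM, the CPM divided by the exonic length in kilobases. In siCTL the highest level was that of PCNA, the sliding clamp, at 245.2 ± 13.6 FPKM (SD, n = 2), followed by thymidylate synthase (TYMS) at 128.3 ± 6.05 FPKM, MCM2 at 108.5 ± 8.01 FPKM and the flap endonuclease FEN1 at 100.3 ± 2.10 FPKM. The lowest levels were those of MCM9 at 2.54 ± 0.107 FPKM, the polymerase alpha subunit POLA2 at 2.59 ± 0.0420 FPKM and MCM8 at 4.02 ± 0.0250 FPKM. Many neighbours in this order did not differ beyond the spread of their libraries, among them CDT1, MCM3 and RRM1 at 80.6 to 85.3 FPKM, RPA2, MCM4 and RRM2 at 44.4 to 45.5 FPKM, and POLA2 with MCM9. The depth was ample for each of them, with 318 counts for POLE2 in its poorest library and 15400 for MCM2 in its richest. The length chosen moves these levels and their order. By the canonical transcript PCNA and TYMS stayed highest in siCTL, followed by MCM7 at 183.2 FPKM and MCM2 at 148.9 FPKM. The lowest were then MCM8 at 4.13 FPKM and MCM9 at 6.07 FPKM. POLD2 stood at 20.7 FPKM by the union of its exons and at 102.8 FPKM by its canonical transcript, LIG1 at 17.5 and 63.5 FPKM, while CDT1 was at 85.3 and 88.3 FPKM. Changes between groups are not touched by that choice.

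**Figure D1:**
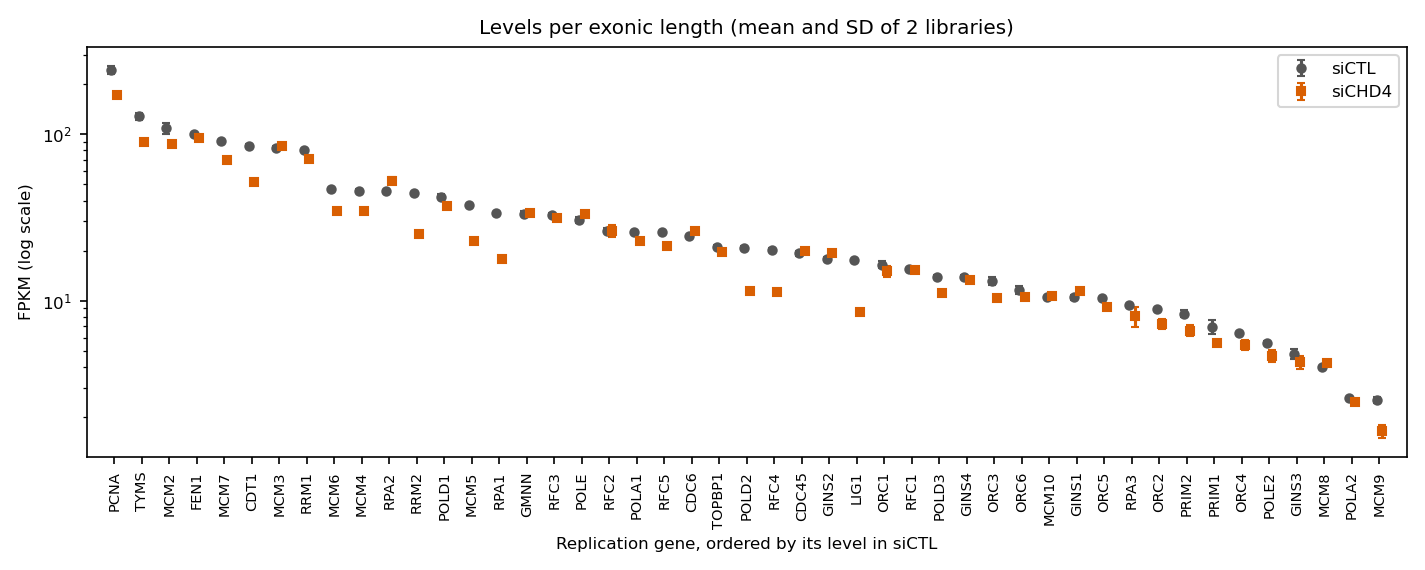
Level of each replication gene in FPKM on a log axis, ordered by its level in siCTL, with circles for siCTL and squares for siCHD4 and bars for the SD of 2 libraries. PCNA is at 245.2 FPKM and MCM9 at 2.54 FPKM in siCTL, and the squares of RPA1, RFC4, POLD2 and LIG1 lie clearly under their circles.

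Compared with siCTL, replication genes fell most often in siCHD4. A gene was called lower or higher where its fold was at least 1.2 and its p, adjusted over the 12830 genes after Benjamini and Hochberg, was no higher than 0.05. In siCHD4, 18 of the 47 genes (38.3%) were called lower, against 24.9% of all genes tested, and 0 were called higher, against 24.0%. In the edgeR test 6 of the 47 genes had an unadjusted p under 0.05 in the upward direction, and DESeq2 also called 0 higher. The median log2 fold change of the 47 genes was −0.15 in siCHD4, where that of all genes was 0.00. In bulk RNA, fewer cells in S phase and less RNA per cell cannot be told apart.

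In the other 4 knockdowns the changes were fewer and smaller. In siCARM1, 2 genes were called lower (14.5% of all genes tested) and 5 higher (14.9% of all genes). In siHDAC2, 0 were called lower (9.00% of all genes), with 3 at an unadjusted p under 0.05 and 0 called by DESeq2, and 6 were called higher (10.6% of all genes). In siGATAD2A, 5 were called lower (18.2% of all genes) and 7 higher (15.7% of all genes). In siKDM1A, 5 were called lower (11.5% of all genes) and 1 higher (14.2% of all genes). The medians of the log2 fold changes were 0.05 in both siCARM1 and siHDAC2 (0.01 in siHDAC2 without its replicate 1), −0.05 in siKDM1A and −0.002 in siGATAD2A. All 5 comparisons use the same 2 siCTL libraries.

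Over the 235 values of 47 genes in 5 knockdowns, 30 were called lower, 19 higher and 186 neither. In 12 genes no knockdown gave a call, ORC1, ORC2, ORC6, CDC6, GMNN, GINS2, GINS3, TOPBP1, POLE2, RFC1, RFC3 and RFC5. There were 23 genes called in 1 knockdown, 10 in 2, and CDC45 and CDT1 in 3. Calls in both directions were found for PRIM1 and RRM1 alone. Of these values 0 reached a fold of 2, the largest being LIG1 in siCHD4 at 1.998-fold.

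**Figure D2:**
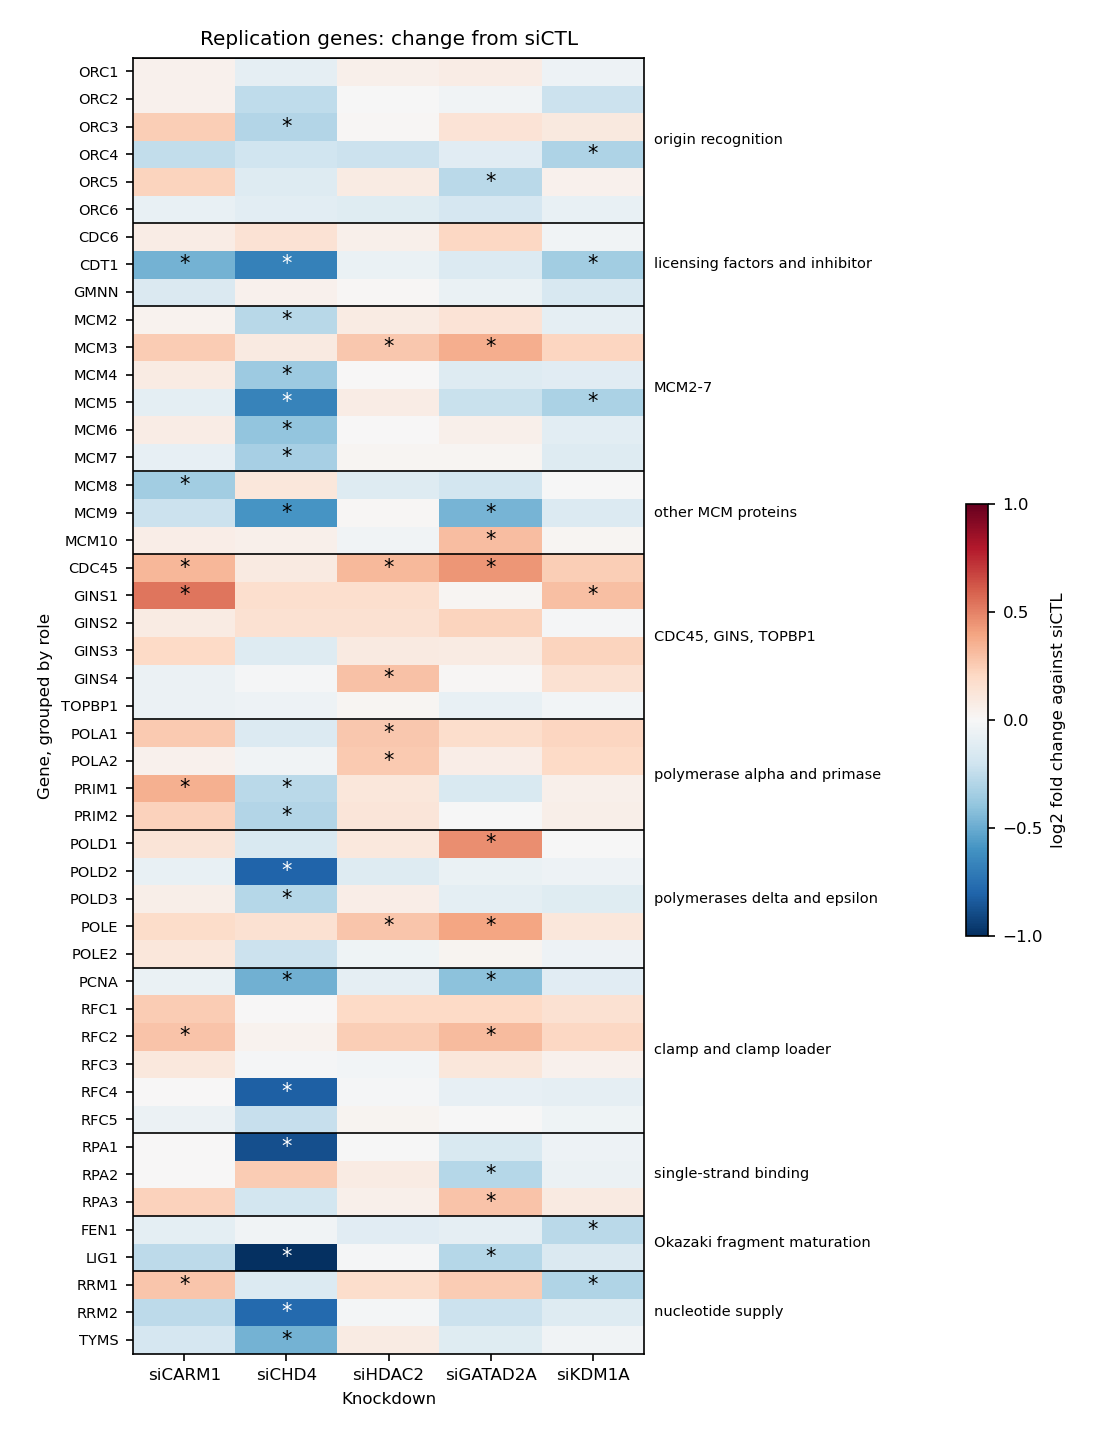
Log2 fold change of the 47 replication genes (rows, grouped by role) in each knockdown against siCTL (columns), from blue for lower to red for higher, with an asterisk where a gene was called. The siCHD4 column holds 18 asterisks, each on a blue cell, and the siHDAC2 column 6, each on a red cell.

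**Figure D3:**
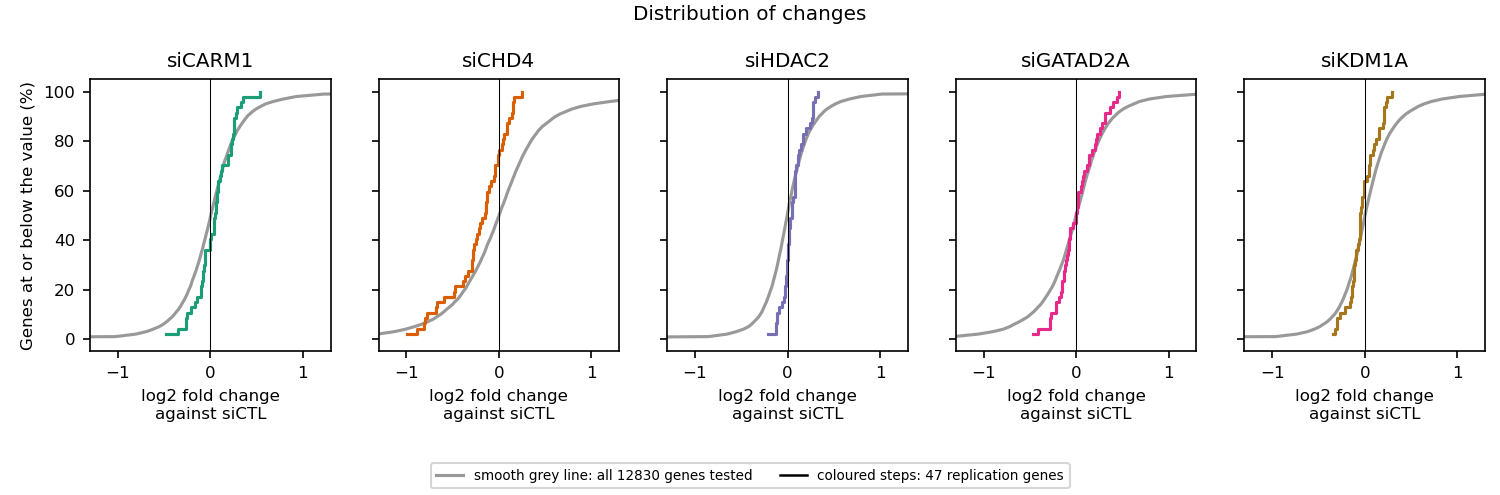
Share of genes (%) at or below each log2 fold change against siCTL, 1 panel per knockdown, for all 12830 genes tested (smooth grey line) and the 47 replication genes (coloured steps). In siCHD4 the steps lie to the left of the grey line over the upper range and end at 0.25, and in siHDAC2 they start at −0.22.

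Among the licensing genes, CDT1, which loads the MCM ring, was the gene that changed most. It stood at 243 and 255.2 CPM in siCTL, 189.5 and 168.8 CPM in siCARM1, 159 and 153.2 CPM in siCHD4, 223.9 and 252.1 CPM in siHDAC2, 228.6 and 224.9 CPM in siGATAD2A, and 203.1 and 188.9 CPM in siKDM1A. Both libraries of siCHD4 lay below every other library, and the libraries of siCARM1, siGATAD2A and siKDM1A below those of siCTL, while siHDAC2 overlapped with siCTL. CDT1 fell in siCHD4 by 0.68 on the log2 scale (SE 0.05, adjusted p = 2.6e-12), in siCARM1 by 0.47 (SE 0.05, adjusted p = 1.5e-08) and in siKDM1A by 0.35 (SE 0.05, adjusted p = 3.9e-06). Its loading partner CDC6 was at 137.6 and 136.9 CPM in siCTL and 153.5 and 149.9 CPM in siCHD4, a log2 fold change of 0.14 (SE 0.05), and geminin, the inhibitor of CDT1, had values between −0.16 and 0.04 over the 5 knockdowns.

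The origin recognition complex moved little. In siCHD4 all 6 subunits had a value under 0, from −0.29 to −0.09, and ORC3 alone was called, with 54.4 and 59.4 CPM in siCTL and 45.5 and 47.5 CPM in siCHD4 (log2 fold change −0.29, SE 0.07, adjusted p = 0.00079). ORC4 was called lower in siKDM1A (−0.31, SE 0.07) and ORC5 in siGATAD2A (−0.27, SE 0.08). The summed level of the 6 subunits in siCHD4 was 57.9 ± 2.05 FPKM (SD, n = 2) against 66.9 ± 0.472 FPKM in siCTL.

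The subunits of the MCM2 to MCM7 ring, which unwinds DNA at the fork, fell together in siCHD4 apart from MCM3. MCM5 fell most, from 284.5 and 291.8 CPM in siCTL to 179.8 and 183.5 CPM in siCHD4 (log2 fold change −0.67, SE 0.04, adjusted p = 9.3e-15). It was at 276.4 and 263.1 CPM in siCARM1, 296.7 and 311.4 CPM in siHDAC2, 250.7 and 244.2 CPM in siGATAD2A and 232.8 and 230 CPM in siKDM1A. The siCHD4 libraries were the lowest of all 12, followed by those of siKDM1A, where the gene was also called lower (−0.32, SE 0.04, adjusted p = 2.7e-07). MCM6 had a value of −0.39, MCM4 of −0.36, MCM7 of −0.33 and MCM2 of −0.27 in siCHD4, all called lower. MCM3 was at 311.6 and 326.8 CPM in siCTL and 337.2 and 340.7 CPM in siCHD4, a log2 fold change of 0.09 (SE 0.04). MCM3 was called higher in siHDAC2 (0.27, SE 0.04) and in siGATAD2A (0.36, SE 0.04). The summed level of the 6 subunits was 81.4% of siCTL in siCHD4, 335.5 ± 2.08 against 412.2 ± 9.17 FPKM (SD, n = 2), and 96.1% to 106.7% in the other knockdowns.

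MCM9, a helicase that acts with MCM8 in homologous recombination, was measured at low levels with 490 to 867 counts. It stood at 34.5 and 32.6 CPM in siCTL, 27.9 and 30.1 CPM in siCARM1, 23.7 and 20.9 CPM in siCHD4, 35.3 and 32.3 CPM in siHDAC2, 25.2 and 23.3 CPM in siGATAD2A, and 29.6 and 31.5 CPM in siKDM1A. The siCHD4 and siGATAD2A libraries overlapped with each other and lay below the rest. MCM9 was called lower in siCHD4 (−0.59, SE 0.08, adjusted p = 2.8e-07) and in siGATAD2A (−0.47, SE 0.08, adjusted p = 1.7e-05). MCM10, which helps to activate the helicase, was called in siGATAD2A alone, where it was higher (0.31, SE 0.06).

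MCM8 was examined by RT-qPCR and chromatin immunoprecipitation in the study. It was at 32.5 and 32.9 CPM in siCTL, 26.3 and 25 CPM in siCARM1, 35.5 and 35.4 CPM in siCHD4, 30.2 and 29.8 CPM in siHDAC2, 28 and 29.5 CPM in siGATAD2A, and 31.4 and 33.6 CPM in siKDM1A. The siCARM1 libraries lay below all others and the siCHD4 libraries above all others. MCM8 was called lower in siCARM1 (−0.35, SE 0.07, adjusted p = 0.00023). In siCHD4 (0.11, SE 0.07), siHDAC2 (−0.13, SE 0.07), siGATAD2A (−0.19, SE 0.07) and siKDM1A (−0.01, SE 0.07) it was not called.

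The primers that the study lists for MCM8 are shown because they lie in exons that MCM8 shares with another gene. They read, 5′ to 3′ and in lower case throughout:
MCM8 forward: ggcatgcagctgagttacaa
MCM8 reverse: cacgaaccactgtccctctt

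The forward primer lies in exon 6 of 19 at chr20:5937794-5937813 and the reverse primer in exon 7 at chr20:5939246-5939265, on GRCh37, and they bound an amplicon of 174 bases. Both lie in exonic bases that the annotation also gives to ENSG00000286235, a gene of the same strand that covers 33.3% of the exonic bases of MCM8. That gene had 0 counts in all 12 libraries, and MCM8 had 523 to 830 counts. Pairs that overlap 2 genes are not counted on either, so where the counting used these exons, the counts of MCM8 come from the bases it does not share and not from the amplicon.

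CDC45 and the GINS subunits complete the active helicase. In siCHD4 0 of the 6 genes of this role, TOPBP1 among them, were called (24.9% of all genes tested were called lower and 24.0% higher), with values from −0.13 to 0.17, and 2 of the 6, GINS1 and GINS2, had an adjusted p under 0.05 at a fold below 1.2 in the upward direction. CDC45 was called higher in siCARM1 (0.33, SE 0.06), siHDAC2 (0.32, SE 0.06) and siGATAD2A (0.44, SE 0.06), from 61.8 and 59.4 CPM in siCTL to 83.5 and 81.2 CPM in siGATAD2A. GINS4 was called higher in siHDAC2 (0.30, SE 0.06).

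GINS1 showed the largest rise of any replication gene. It stood at 86.1 and 91.4 CPM in siCTL, 121.3 and 136.2 CPM in siCARM1, 97.6 and 102 CPM in siCHD4, 101.3 and 98 CPM in siHDAC2, 89.1 and 90.8 CPM in siGATAD2A, and 109.8 and 108.8 CPM in siKDM1A. The siCARM1 libraries lay above all others, with siKDM1A next. GINS1 rose by 0.53 in siCARM1 (SE 0.05, adjusted p = 1.9e-09) and by 0.30 in siKDM1A (SE 0.05, adjusted p = 5.0e-05). GINS1 was lower in siCHD4 than in siCARM1 (−0.36, SE 0.05) when the 2 knockdowns were compared directly.

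Of polymerase alpha and primase, which make the primers, PRIM1 and PRIM2 were called lower in siCHD4 and POLA1 and POLA2 were called higher in siHDAC2. PRIM1, the catalytic primase subunit, was at 26 and 22.8 CPM in siCTL, 30.7 and 31.7 CPM in siCARM1, 19.9 and 20.4 CPM in siCHD4, 27.5 and 25.3 CPM in siHDAC2, 21 and 22.8 CPM in siGATAD2A, and 24.9 and 25.7 CPM in siKDM1A. The siCARM1 libraries were the highest and the siCHD4 libraries the lowest, while those of siCTL lay further apart than those of any other group. PRIM1 rose in siCARM1 by 0.36 (SE 0.08, adjusted p = 0.00061) and fell in siCHD4 by 0.27 (SE 0.09, adjusted p = 0.0066). Neither call held in every fit with a library left out. Without siCTL replicate 1 the change in siCHD4 was −0.18 (adjusted p = 0.14), and without siCHD4 replicate 1 it was −0.26 (adjusted p = 0.038), a fold under 1.2. Without siCTL replicate 2 the change in siCARM1 was 0.26, with an adjusted p of 0.043 and a fold under 1.2. PRIM1 shares 15.1% of its exonic bases with another gene of the same strand, and PRIM2 18.3%.

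In polymerase delta, the lagging-strand enzyme, the subunits moved by different amounts in siCHD4. POLD2 was at 177.9 and 172.1 CPM in siCTL and 100.8 and 99.7 CPM in siCHD4. In the other 8 libraries it lay between 155.4 and 171.6 CPM, so that the siCHD4 libraries were far below the rest. Its log2 fold change was −0.80 (SE 0.05, adjusted p = 2.0e-15), that of POLD3 was −0.28 (SE 0.06) and that of the catalytic subunit POLD1, which was not called, −0.15 (SE 0.04). POLD1 was called higher in siGATAD2A, with 214.4 and 227.1 CPM in siCTL and 305.2 and 305.5 CPM in siGATAD2A (0.47, SE 0.04, adjusted p = 2.0e-10). POLE, the catalytic subunit of polymerase epsilon, was called higher in siGATAD2A (0.40, SE 0.04) and siHDAC2 (0.27, SE 0.04). The difference between subunits of a complex was not tested.

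The clamp PCNA fell in siCHD4 and in siGATAD2A. It was at 349.1 and 379.4 CPM in siCTL, 262.4 and 260.1 CPM in siCHD4 (−0.48, SE 0.04, adjusted p = 4.1e-11), and 267.5 and 280.4 CPM in siGATAD2A (−0.41, SE 0.04, adjusted p = 2.2e-09). These 4 libraries were the lowest of the 12. Of the 5 RFC subunits that load the clamp, RFC4 alone was called in siCHD4, at 36.9 and 36.1 CPM against 65.1 and 63.4 CPM in siCTL and 59 to 67.9 CPM in the other 8 libraries (−0.81, SE 0.06, adjusted p = 1.3e-12). RFC1, RFC2 and RFC3 had values of 0.00, 0.03 and −0.01 in siCHD4, and RFC5 of −0.23 at a fold of 1.17. RFC2 was called higher in siCARM1 (0.28, SE 0.06) and siGATAD2A (0.31, SE 0.06).

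RPA1, the large subunit of the single-strand binding protein, was at 196.8 and 195.4 CPM in siCTL and at 105.8 and 107.1 CPM in siCHD4. In the other 8 libraries it lay between 174.6 and 197.5 CPM, none near the siCHD4 libraries. The log2 fold change was −0.88 (SE 0.04, adjusted p = 2.1e-17). The second subunit RPA2 was at 117.6 and 109.3 CPM in siCHD4, above the 94.3 to 96.2 CPM of siCTL and every other library (0.25, SE 0.05, adjusted p = 8.4e-05), at a fold of 1.19 that is under the minimum for a call. RPA3 had a value of −0.18 (SE 0.08, adjusted p = 0.052) in siCHD4. In siGATAD2A the order was the opposite for the small subunits, with RPA2 called lower (−0.28, SE 0.05) and RPA3 called higher (0.28, SE 0.08).

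LIG1, the ligase that seals Okazaki fragments, had the largest change of all 235 values. It was at 208.5 and 211.4 CPM in siCTL, 182.3 and 167.6 CPM in siCARM1, 105.3 and 104.9 CPM in siCHD4, 204.1 and 213.3 CPM in siHDAC2, 171.4 and 173.6 CPM in siGATAD2A, and 193.8 and 185.2 CPM in siKDM1A. The siCHD4 libraries lay far below the rest, and the libraries of siCARM1, siGATAD2A and siKDM1A below those of siCTL. LIG1 fell by 0.998 on the log2 scale in siCHD4 (SE 0.05, adjusted p = 8.7e-18) and by 0.28 in siGATAD2A (SE 0.05, adjusted p = 4.8e-06). In siCARM1 its value of −0.26 (SE 0.05, adjusted p = 2e-05) came to a fold of 1.199 and missed the minimum. FEN1, which trims the fragments before ligation, had a value of −0.04 (SE 0.04) in siCHD4 and was called lower in siKDM1A alone (−0.27, SE 0.04).

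Ribonucleotide reductase makes deoxyribonucleotides. RRM2, the small subunit whose level follows S phase, was at 435.3 and 425.6 CPM in siCTL, 353.1 and 366.6 CPM in siCARM1, 247.5 and 253.7 CPM in siCHD4, 427.8 and 421 CPM in siHDAC2, 364.2 and 376.5 CPM in siGATAD2A, and 393.1 and 394.7 CPM in siKDM1A. The siCHD4 libraries lay far below all others, and siHDAC2 overlapped with siCTL. RRM2 fell in siCHD4 by 0.78 (SE 0.04, adjusted p = 2.4e-17).

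RRM1, the large subunit, was at 355.7 and 367 CPM in siCTL, 421.3 and 455.8 CPM in siCARM1, 330.9 and 325.3 CPM in siCHD4, 420.3 and 394.4 CPM in siHDAC2, 427.2 and 435.6 CPM in siGATAD2A, and 295.4 and 290.1 CPM in siKDM1A. The siKDM1A libraries were the lowest and those of siCARM1, siHDAC2 and siGATAD2A all lay above siCTL. RRM1 rose in siCARM1 by 0.28 (SE 0.04, adjusted p = 2.1e-06), a call lost, by its fold alone, without siCTL replicate 1 (0.26) or siCARM1 replicate 2 (0.22), and fell in siKDM1A by 0.30 (SE 0.04, adjusted p = 7.4e-07). Thymidylate synthase, which makes dTMP, fell in siCHD4 by 0.47 (SE 0.04), from 317 and 340.5 CPM to 238.5 and 235.4 CPM.

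**Figure D4:**
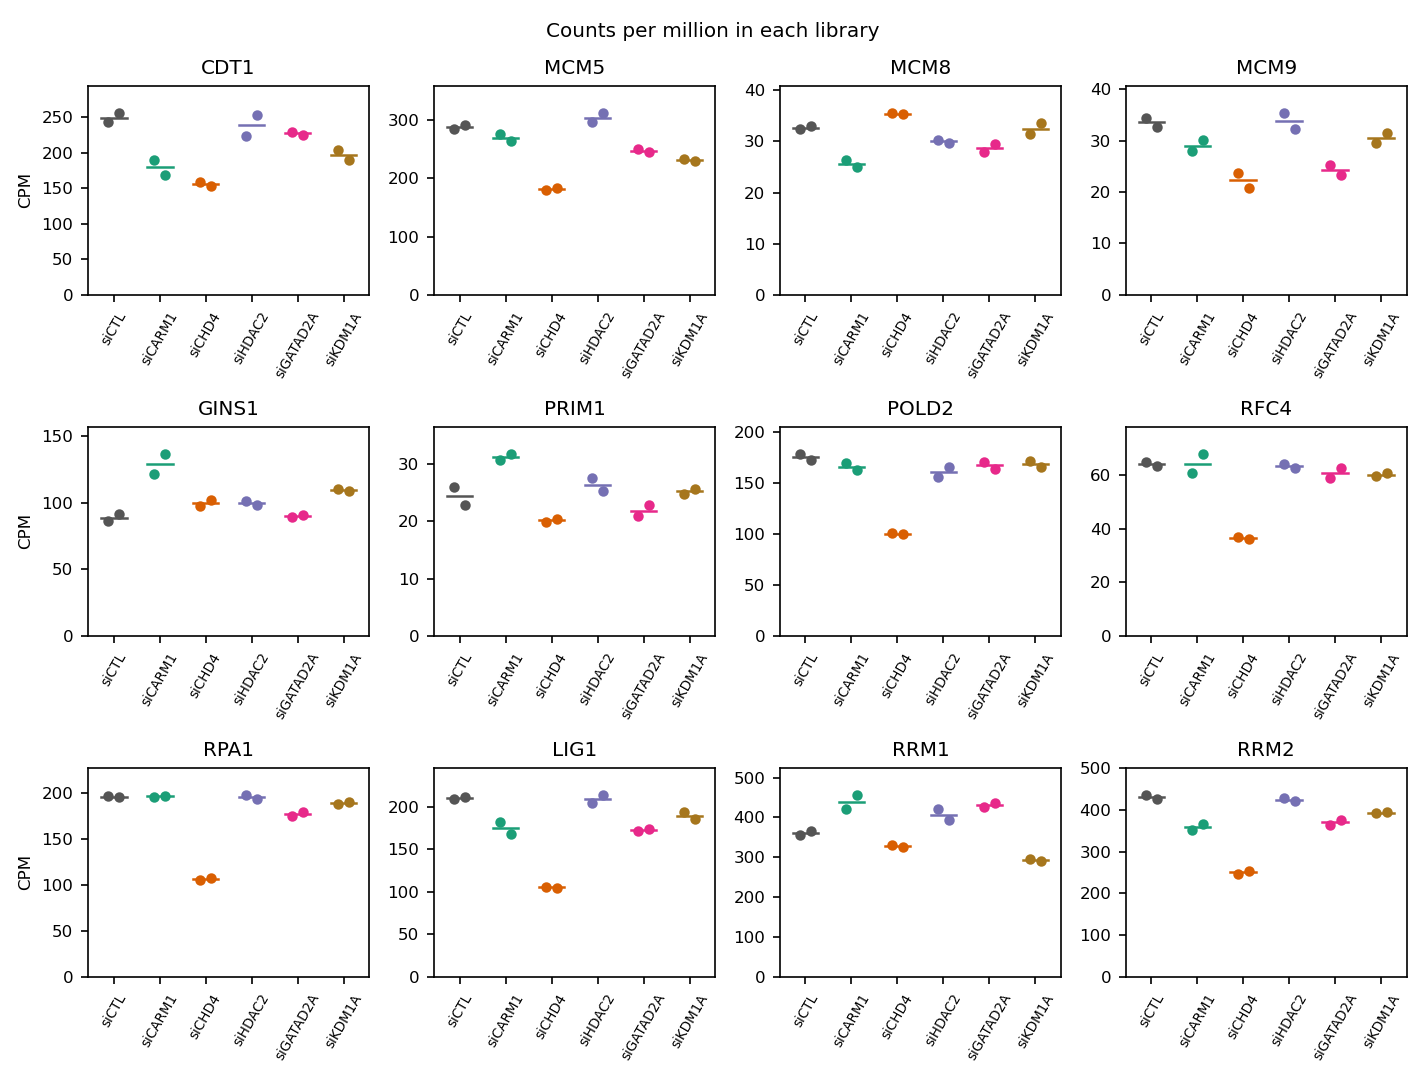
CPM of the 12 genes with values given in every library, 1 panel per gene on a linear axis from 0, with a point per library and a line at the mean of the 2 libraries of a group. The orange siCHD4 points lie below all others for CDT1, MCM5, PRIM1, POLD2, RFC4, RPA1, LIG1 and RRM2, and above all others for MCM8.

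Of the 49 calls against siCTL, 18 were lost in at least 1 fit with a library left out. In 17 of the 18 the adjusted p stayed at or under 0.05 and the fold slipped under 1.2, and PRIM1 in siCHD4 alone also missed the adjusted p. Of the 18 calls in siCHD4, 13 held whichever library of siCTL or siCHD4 was left out, and those of MCM2, PRIM2, ORC3, POLD3 and PRIM1 did not. In siGATAD2A 10 of 12 calls held (not RPA3 and ORC5), in siCARM1 3 of 7 (not RFC2, RRM1, PRIM1 and CDC45), in siKDM1A 3 of 6 (not ORC4, FEN1 and GINS1) and in siHDAC2 2 of 6 (not MCM3, POLA2, POLE and POLA1).

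Whether siCHD4 differs from the other knockdowns was tested directly, in contrasts that hold no siCTL library. Against siCARM1, 25 of the 47 genes were lower in siCHD4 (24.5% of all genes tested) and 1 was higher (23.3%). Against siHDAC2, 22 were lower (25.3%) and 0 higher (23.5%), with 3 at an unadjusted p under 0.05 in the upward direction. Against siGATAD2A, 20 were lower (21.9%) and 2 higher (22.9%), and against siKDM1A 17 were lower (25.0%) and 1 higher (22.8%). DESeq2 gave the same number of calls as edgeR in each of these 4 contrasts, 26, 22, 22 and 18 in both directions together. The 4 contrasts share the siCHD4 libraries.

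There were 11 of the 47 genes lower in siCHD4 than in each of the 4 other knockdowns, which was so for 1535 of the 12830 genes tested (12%). They were ORC3, MCM5, MCM6, POLA1, PRIM2, POLD2, RFC4, RPA1, LIG1, RRM2 and TYMS. For POLD2 the 4 differences lay between −0.75 and −0.68, for RFC4 between −0.82 and −0.73, for RPA1 between −0.88 and −0.73 and for LIG1 between −0.99 and −0.71 on the log2 scale. POLA1 is among them although it was not called against siCTL (−0.14, SE 0.04), with 391 and 385.5 CPM in siCHD4, 425.5 and 428.8 CPM in siCTL and 476.8 to 523.6 CPM in the other 8 libraries. MCM9, CDT1, MCM2, PRIM1, PCNA, RPA3 and RRM1 were lower in siCHD4 than in 3 of the 4. For 15 genes siCHD4 was lower than none of the 4, and MCM8 and RPA2 were the only genes higher than any, each than 2.

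The same libraries were also compared by their CPM without a test, which adds no separate evidence. In 21 of the 47 genes both siCHD4 libraries lay below the other 10 libraries, which was so for 2638 of the 12830 genes tested (20.6%). In 2 genes, MCM8 and RPA2, both lay above the other 10, against 2838 of the 12830. The summed level of the 47 genes was 1390 ± 17.7 FPKM in siCHD4 and 1709 ± 36.4 FPKM in siCTL (SD, n = 2), 81.3% of siCTL, and 1622 to 1755 FPKM in the other knockdowns. By role, the sum in siCHD4 was 73.6% of siCTL for the nucleotide genes and 75.6% for the clamp and its loader, and 101% for CDC45, GINS and TOPBP1. PCNA makes up most of the sum of the clamp group.

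**Figure D5:**
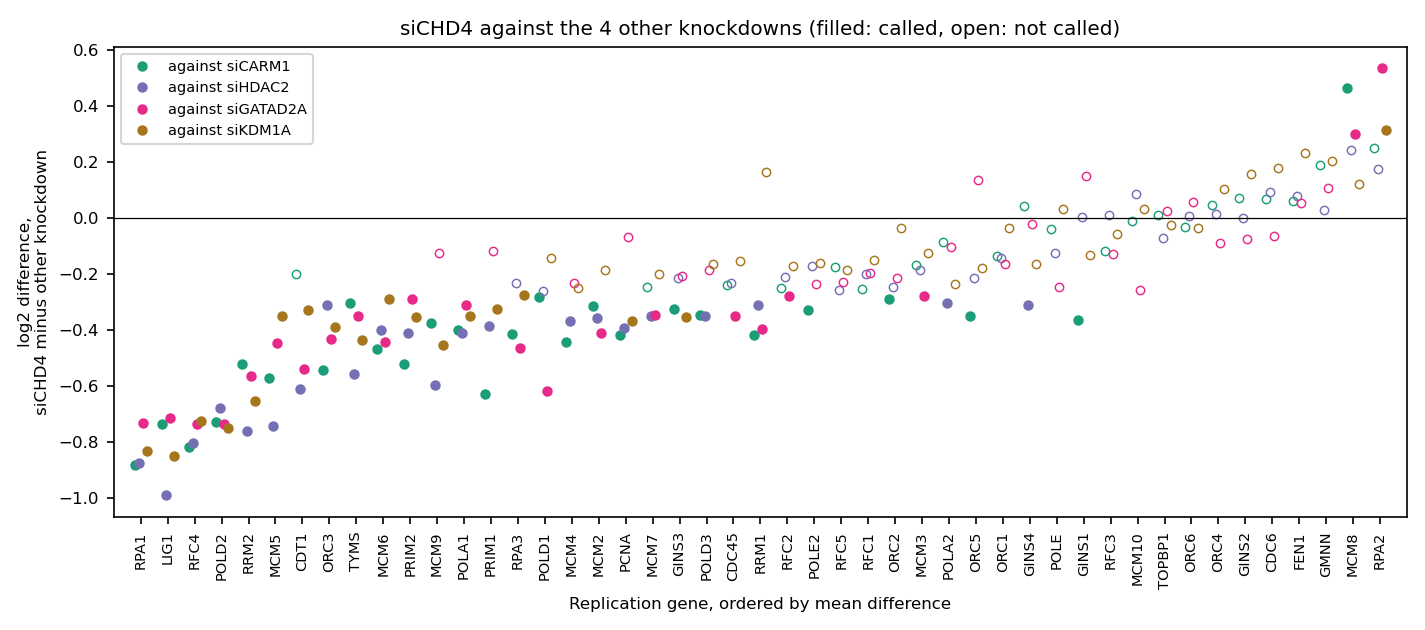
Log2 difference of each replication gene between siCHD4 and each of the 4 other knockdowns, ordered by the mean difference, with filled points where the difference was called and open points where it was not. All 4 points of 11 genes are filled below 0, and MCM8 and RPA2 at the right end have 2 filled points each above 0.

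The knockdowns other than siCHD4 differed from each other in few replication genes. The number called in either direction was 3 between siCARM1 and siHDAC2 (19.3% of all genes tested), 7 between siCARM1 and siGATAD2A (33.8%), 3 between siCARM1 and siKDM1A (21.0%), 10 between siHDAC2 and siGATAD2A (29.5%), 3 between siHDAC2 and siKDM1A (14.3%) and 8 between siGATAD2A and siKDM1A (32.1%). RRM1 was lower in siKDM1A than in siCARM1 (by 0.58, SE 0.04), siGATAD2A (by 0.56, SE 0.04) and siHDAC2 (by 0.48, SE 0.04). PCNA was lower in siGATAD2A than in siCARM1, siHDAC2 and siKDM1A, and POLD1 was higher in siGATAD2A than in the same 3. GINS1 was higher in siCARM1 than in siHDAC2 (by 0.37, SE 0.05) and siGATAD2A (by 0.51, SE 0.05). CDT1 was lower in siCARM1 than in siHDAC2 and siGATAD2A, and lower in siKDM1A than in siHDAC2. MCM8 was lower in siCARM1 than in siKDM1A (−0.34, SE 0.07) and siCHD4 (−0.46, SE 0.07).

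A list of 42 other genes of replication, chromatin assembly at the fork and nucleotide supply, written from textbook knowledge, was followed beside these genes, and 40 of the 42 were tested. In siCHD4 18 of the 40 were called lower and 2 higher, where 24.9% and 24.0% of all genes tested were. In siCARM1 3 were lower and 3 higher (14.5% and 14.9% of all genes), in siHDAC2 1 lower and 0 higher (9.00% and 10.6%), in siGATAD2A 4 lower and 5 higher (18.2% and 15.7%), and in siKDM1A 5 lower and 1 higher (11.5% and 14.2%). The siHDAC2 count of 0 higher goes with 12 genes at an unadjusted p under 0.05 in that direction. The median log2 fold change in siCHD4 was −0.11.

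Among those with the largest changes were ASF1A, DUT, RRM2B and WDHD1. ASF1A, a histone chaperone, was at 28.7 and 27.8 CPM in siCTL and 11.4 and 12.7 CPM in siGATAD2A, where it fell by 1.23 (SE 0.09, adjusted p = 1.2e-12), more than any of the 47 genes in any knockdown. DUT, which breaks down dUTP, was at 106.4 and 79.8 CPM in siCTL and 54.9 and 46.4 CPM in siCHD4 (−0.87, SE 0.11), and the siCTL libraries differ widely. RRM2B, the reductase subunit induced by p53, fell in siCHD4 by 0.77 (SE 0.06) and in siGATAD2A by 0.45 (SE 0.06). WDHD1, which links the helicase to polymerase alpha, fell in siCHD4 by 0.72 (SE 0.06).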

How the data were processed

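RNA-seq was read from 12 libraries of HEK293T cells, 2 for each of siCTL, siCARM1, siCHD4, siHDAC2, siGATAD2A and siKDM1A, grouped by their labels. The deposited values are raw counts, with no normalization, of the read pairs on every Ensembl gene, given once unstranded and once per strand. The submitters' processing notes name CASAVA 1.4, STAR 2.7.10 and the build hg19, and the annotation release is not given in the sources used here. The study's methods name TopHat, HOMER and DESeq2 for its own analysis. The reverse-strand column was read, since the kit is directional and the forward strand held 7.93% to 8.40% as many. Pairs on several locations or on 2 genes are not in these counts, which can lower the level of genes that share exons, 8 of the 47 followed here. Libraries held 30642632 to 44981503 fragments.

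Identifiers were matched to GENCODE release 44 mapped to GRCh37. Left out were 1954 unmatched identifiers, with 1.75% to 2.61% of all counts, and 44 chromosome Y copies of genes. CPM and FPKM were computed here. CPM was scaled over the tested genes with TMM factors, and FPKM over all counts on genes and the union of exons. Tested were protein-coding genes whose group mean exceeded 0.5 FPKM in any group, with edgeR 4.0.16 in R 4.3.3. The quasi-likelihood test had TMM factors of 0.968 to 1.01, 6 group means and 6 residual degrees of freedom. The spread of a gene was estimated together with that of the other genes, with a median of 24.5 prior degrees of freedom. An SE is the absolute fitted log2 difference divided by the square root of the F statistic. It is thus not the spread of the 2 libraries of a group alone. A call needs both a fold of at least 1.2 and a p, adjusted after Benjamini and Hochberg, no higher than 0.05. Replicates of a group differed by more than sampling noise (chi-square per degree of freedom 1.77 to 4.97), so that none was treated as a second copy of another, which does not show that they came from separate cultures. The fit was also run on simulated data with fewer changed genes than were called here, and no result rests on that run.

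The 47 genes, the other lists and the rules were chosen with earlier results of these data known. Values in every library are given for genes called with an absolute log2 fold change of 0.5 or more, genes called both ways and MCM8. The 5 other replication genes with the largest change were to be named, and 1 of them is not reported here. Other names were chosen after their values were seen. Alternatives were RLE size factors, DESeq2 1.42.0, unstranded counts, a replicate block, a fit on just 2 groups, FPKM larger than 1, no expression filter, no fold minimum and each library left out in turn, and, added after seeing the data, the length of the canonical transcript. Promoter motifs were counted with no test.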

Additional observations from a re-analysis of the deposited data

Results flagged for a closer look

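For each of the 12 genes with values in every library, the difference between the 2 knockdowns that lay furthest apart is given. The genes were mostly chosen for a large change, most often in siCHD4, and each pair is the widest of 10, so that a difference past the threshold and the part of siCHD4 in the pairs follow from the choice and are given as a description. CDT1 was lower in siCHD4 than in siHDAC2 (−0.61 on the log2 scale, SE 0.05, 156.1 against 238 CPM). MCM5 differed between the same knockdowns by −0.74 (SE 0.04), MCM9 by −0.60 (SE 0.08), LIG1 by −0.99 (SE 0.05) and RRM2 by −0.76 (SE 0.04). Lower in siCHD4 than in siCARM1 were PRIM1 (−0.63, SE 0.08), RFC4 (−0.82, SE 0.06) and RPA1 (−0.88, SE 0.04). POLD2 was lower in siCHD4 than in siKDM1A (−0.75, SE 0.05).

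MCM8 was the gene for which siCHD4 was the higher group, and it differed between siCARM1 and siCHD4 by −0.46 (SE 0.07, 25.6 against 35.4 CPM). GINS1 was lower in siGATAD2A than in siCARM1 (−0.51, SE 0.05, 90 against 128.7 CPM). RRM1 was lower in siKDM1A than in siCARM1 (−0.58, SE 0.04, 292.7 against 438.6 CPM). Groups of 2 libraries are too small for a search for single libraries that stand apart.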

How the results depend on the processing

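The libraries are deep enough that counting error is small for these genes, and 2 libraries a group are a limit. Replicate 1 of siCTL had the fewest counts on genes (19308315). It also had the largest share of fragments on several locations, 10.6% against a median of 6.48%. The siCARM1 replicates differed most from each other (chi-square per degree of freedom 4.97). The part of these differences in the results was not tested. The differences between replicates 1 and 2 had correlations of −0.14 to 0.14 between groups, which does not show whether same-numbered libraries were handled together. With a replicate block siCHD4 kept 18 genes lower and every call against siCTL was kept. DESeq2 kept all calls but 1, in siHDAC2.

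With no fold minimum the counts rose to 8 lower and 15 higher in siCARM1, and to 24 lower and 6 higher in siCHD4. They rose to 3 lower and 11 higher in siHDAC2, 13 lower and 13 higher in siGATAD2A, and 13 lower and 10 higher in siKDM1A. Between knockdowns they rose to 15 (siCARM1 and siHDAC2), 21 (siCARM1 and siGATAD2A), 17 (siCARM1 and siKDM1A), 36 (siCHD4 and siHDAC2), 37 (siCHD4 and siKDM1A), 22 (siHDAC2 and siGATAD2A), 18 (siHDAC2 and siKDM1A) and 27 (siGATAD2A and siKDM1A). The counts with no fold minimum between siCHD4 and siCARM1 and between siCHD4 and siGATAD2A are not given here. Without regard to strand siCARM1 had 5 genes lower, and with no expression filter 4 lower in siCARM1 and 3 higher in siHDAC2. The cause was not tested.

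Medians near 0 moved by more than their small spread. That of siGATAD2A was −0.0114 without regard to strand, 0.0018 with FPKM larger than 1, −0.009 with no filter and −0.0056 with only 2 groups. That of siKDM1A was −0.049 with RLE and DESeq2, −0.0546, −0.0401, −0.0555 and −0.0549 in the same order of settings.

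With each library left out in turn, the genes lower in siCARM1 numbered 3 to 5 (5 without siCARM1 replicate 2) and those higher 4 to 9 (9 without siCARM1 replicate 1, 8 without siCTL replicate 2). Those higher in siCHD4 numbered 0 to 1 (1 without siCTL replicate 1 or siCHD4 replicate 2), those lower in siHDAC2 0 to 1 (1 without siHDAC2 replicate 1) and those higher in siKDM1A 1 to 3 (3 without siKDM1A replicate 2, 2 without siCTL replicate 2). Between siCARM1 and siHDAC2 4 to 8 genes were called (8 without siCARM1 replicate 1, 7 without siHDAC2 replicate 1, 5 without siCARM1 replicate 2), and between siCARM1 and siKDM1A 3 to 6 (6 without siCARM1 replicate 1, 5 without siKDM1A replicate 2). The medians ranged from 0.0349 to 0.0811 in siCARM1 (highest without siCARM1 replicate 1), −0.1846 to −0.1364 in siCHD4, 0.0119 to 0.0749 in siHDAC2 (lowest without siHDAC2 replicate 1, highest without siHDAC2 replicate 2; 0.0251 without regard to strand), −0.0214 to 0.0051 in siGATAD2A (lowest without siCTL replicate 1, above 0 without either siGATAD2A replicate) and −0.0489 to −0.0295 in siKDM1A (nearest 0 without siCTL replicate 1).

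Signs that turned were all of values near 0 that were not called. MCM9 in siHDAC2 was −0.0297 without regard to strand and −0.0013 with no filter. RFC4 in siCARM1 was −0.0011 (RLE), −0.017 (strand), −0.0065 (no filter) and −0.0006 (2 groups and DESeq2), RPA1 in siCARM1 −0.0026, −0.0046, −0.0079, −0.0026 and −0.0025, and RPA1 in siHDAC2 0.0006 (FPKM larger than 1). With a library left out, the range was −0.1574 to 0.0123 for CDT1 in siHDAC2, −0.058 to 0.0356 for MCM8 in siKDM1A, −0.0564 to 0.0731 for MCM9 in siHDAC2, −0.0223 to 0.0605 for GINS1 in siGATAD2A, −0.045 to 0.1481 for PRIM1 in siKDM1A, −0.0786 to 0.0811 for RFC4 in siCARM1, −0.0341 to 0.0051 for RFC4 in siHDAC2, −0.0087 to 0.0053 for RPA1 in siCARM1, −0.0274 to 0.0071 for RPA1 in siHDAC2 and −0.0441 to 0.0187 for LIG1 in siHDAC2. The cause was not tested.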
